A study of Oryza sativa with 7 samples.

Results

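The regions described here are 8334 bins of 100 bp in the rice genome, 1.13% of the 739911 bins that could be compared, at which the salinity-tolerant cultivar Pokkali stood apart from the cultivars IR64 and N22. A bin could be compared when it lay on chromosomes 1 to 12, held 3 or more methylated cytosines (mCs) listed in all 7 deposited tables, and had 20 or more reads summed over these mCs in each library. Its methylation level was the number of methylated reads divided by all reads over these mCs. Bins were kept where both Pokkali libraries were at least 20 percentage points above all 5 IR64 and N22 libraries, or at least 20 points below all 5. The former are called bins higher in Pokkali and the latter bins lower in Pokkali. The members were chosen by these same levels, so the levels, and every difference between Pokkali and the other cultivars given here, are a description of the selected bins and carry no test.

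Whole genome bisulphite sequencing, which reads unmethylated cytosines as thymines, was performed on seedlings of the 3 cultivars, about 2 weeks old and grown in a culture room. IR64 is sensitive to drought and salinity and N22 is drought-tolerant. Each of the 7 libraries was the only one of its kind. IR64, N22 and Pokkali were kept in RO water as controls, IR64 and N22 were desiccated on dry filter paper, and IR64 and Pokkali were treated with 200 mM salt (salinity). The control DNA was a pool of 3 biological replicates per the methods of the study, and the sources used here do not state this for the stressed libraries. No desiccated Pokkali or salt-treated N22 library was analysed here. The tables listed 14843198 to 18209800 mCs per library at a mean depth of 14.3 to 19.1 reads, and 6697073 mCs were listed in all 7.

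Plant genomes are methylated at symmetric CG and CHG sites and at asymmetric CHH sites, H being any base but G. CG methylation is copied to the new strand at replication by the maintenance methyltransferase MET1. CHG methylation is kept by chromomethylases of the CMT3 type, which bind histone H3 methylated at lysine 9, and CHH methylation by CMT2 and by the small RNA directed enzyme DRM2. Many transcribed genes carry CG methylation alone, whereas transposons usually carry CG and CHG methylation together. The contexts compared here are those of mCs listed in all 7 libraries, so they do not assign a bin to either kind.

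Nearly all members were hypomethylated in Pokkali. Of the 8334 bins, 8020 (96.2%, 95% Wilson interval 95.8 to 96.6) were lower in Pokkali and 314 were higher. Among all bins compared these were 1.08% and 0.0424%, respectively, which are the background shares of the rule itself. The same rule set N22 apart at 3780 bins, of which 2199 were higher and 1581 (41.8%) lower in N22, and IR64 apart at 3770 bins, of which 373 were higher and 3397 (90.1%) lower. N22 had 2 libraries against 5, as Pokkali had, whereas IR64 had 3 against 4. The predominance of lower bins was thus seen for Pokkali and for IR64 and not for N22. The Pokkali counts rest on both of its libraries: without the control library 12942 bins were lower and 762 higher, and without the salinity library 14684 were lower and 641 higher. Without N22 control, 550 bins were higher. A bin above 80% in any IR64 or N22 library could not be 20 points higher in Pokkali. Of all bins compared, 60.5% were above 80% in IR64 control and 67.9% in N22 control, so room for higher bins was limited. The part of this limit in the predominance of lower bins was not tested. The Wilson interval counts bins as independent, although bins of 1 cluster are not. The direction was not tested, because each cultivar and treatment had a single library.

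**Figure D1:**
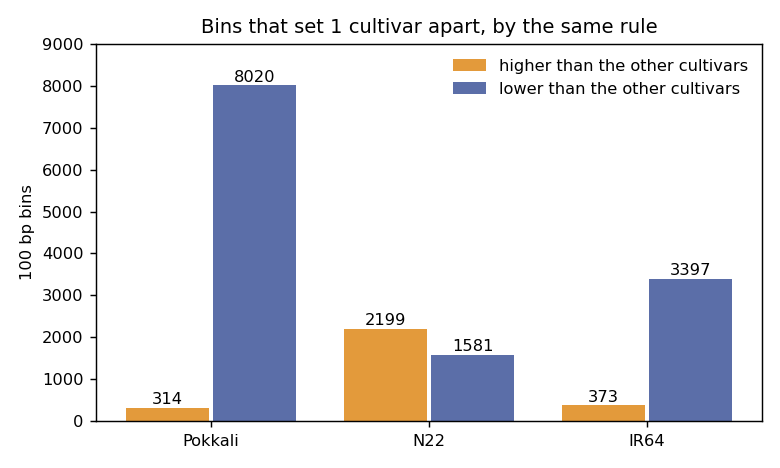
Number of 100 bp bins (y axis) at which all libraries of 1 cultivar (x axis) were 20 or more points above or below all libraries of the other cultivars. Pokkali had 8020 lower and 314 higher bins, N22 had 1581 lower and 2199 higher bins, and IR64 had 3397 lower and 373 higher bins.

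At the lower bins, Pokkali was at an intermediate level rather than unmethylated. The median level was 46.1% in Pokkali control and 45.5% in Pokkali salinity. Among the IR64 libraries it was 88.1% in control, 88.5% after desiccation and 88.3% after salinity, and N22 had 90.4% in control and 89.8% after desiccation. The Pokkali libraries were low together and the other 5 were uniformly high. In Pokkali control 46.5% of the lower bins lay between 40 and 60% and 4.04% lay under 20%, and the shares in Pokkali salinity were 45.0% and 4.15%. Only mCs listed in every library entered these levels, so a bin without methylation in Pokkali could not become a member.

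The higher bins were the mirror image. Their median level was 86.2% in Pokkali control and 87.2% in Pokkali salinity, beside 45.1, 44.3 and 45.3% in the control, desiccation and salinity libraries of IR64 and 47.4 and 45.1% in the control and desiccation libraries of N22. Here the 5 libraries of IR64 and N22 were intermediate and Pokkali was near the level usual for the genome. Over all bins compared, the median of a library lay between 83.5 and 85.7%.

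**Figure D2:**
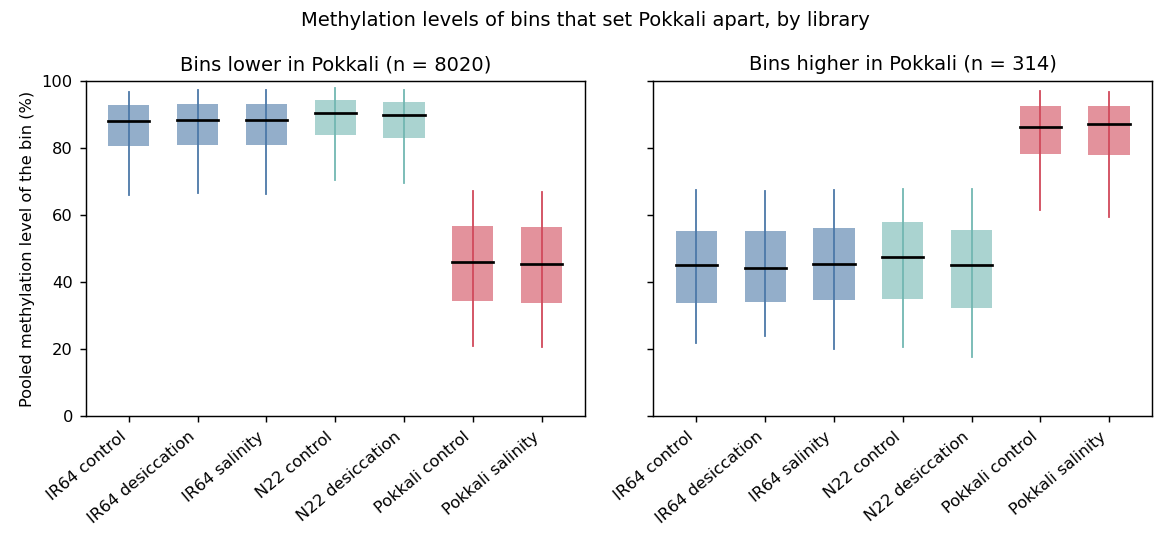
Pooled methylation level of the bin (y axis, percent) in each of the 7 libraries (x axis) for the 8020 bins lower and the 314 bins higher in Pokkali. Black lines are medians over bins, boxes span the 25th to the 75th percentile and thin lines the 5th to the 95th. The Pokkali medians of the lower bins are 46.1 and 45.5% and those of the other libraries 88.1 to 90.4%.

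The gap, meaning the distance between the Pokkali library and the other library that came closest to each other, had a median of 29.4 points and a maximum of 81.1 points at the lower bins. It was 30 points or more at 3842 lower bins, 50 or more at 773 and 60 or more at 230. At the higher bins the median gap was 25.5 points and the maximum 69.6 points, with 87 bins at 30 or more and 9 at 50 or more. Large gaps were therefore found mainly among the lower bins. The mean of the Pokkali libraries differed from the mean of the other 5 by a median of -39.1 points at lower and 36.2 points at higher bins. The library of IR64 or N22 nearest to Pokkali at a lower bin was IR64 control at 1988 bins and N22 control at 1133, with the other 3 libraries in between. At higher bins N22 control was the nearest most often, at 94 of 314. The 5 other libraries spanned a median of 8.94 points at a lower bin and 16.0 points at a higher bin. They were thus less uniform where Pokkali was higher.

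The 5 lower bins with the largest gap, among those with at least 50 reads in each library and taking 1 bin per cluster, each held 3 CG mCs. The largest gap among them was at 5911401 to 5911500 on chromosome 11 (MSU release 7 coordinates). The level there was 12.9% in Pokkali control (12 of 93 reads, Wilson interval 7.54 to 21.2) and 13.5% in Pokkali salinity (10 of 74 reads, 7.51 to 23.1). It was 94.6, 95.3 and 94.7% in IR64 control, desiccation and salinity, and 95 and 97.0% in N22 control and desiccation, on 60 to 112 reads. All 3 cytosines behaved alike, and each was between 11.1 and 16% in the Pokkali libraries and at 89.2% or above in the other 5.

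Another of these 5 bins lay 1200 bp away on the same chromosome, at 5910201 to 5910300. Its level was 16.7% in Pokkali control and 12.6% in Pokkali salinity, and it was 94.7, 95.7 and 94.5% in IR64 control, desiccation and salinity and 95.5 and 97.1% in N22 control and desiccation. No bin between this pair could be compared, and the next one, at 5912301 to 5912400, was at 96.9% in Pokkali control and 100% in Pokkali salinity. Highly methylated and weakly methylated CG sites of Pokkali thus lay within 1 kb of each other, while the other cultivars were high throughout.

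On chromosome 1, the lower bin at 7576401 to 7576500 was at 13.4% in Pokkali control and 10.3% in Pokkali salinity. It was at 94.2, 95.8 and 91.8% in IR64 control, desiccation and salinity, and at 98.3 and 94.2% in N22 control and desiccation. On chromosome 2, the bin at 9068101 to 9068200 was at 15.5% in Pokkali control and 12.5% in Pokkali salinity and at 93.8 to 96.4% in the other 5 libraries. Both bins fell to the same low range in Pokkali, whatever the treatment. On chromosome 3, the bin at 34409701 to 34409800 was at 14.7% in Pokkali control and 19.7% in Pokkali salinity and at 93.6 to 96.4% in the other libraries. The mCs compared in these bins were all in CG context. No annotation of the build was used here, and the genes at these positions are not named.

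Among the higher bins chosen in the same way, the one with the largest gap, 13444601 to 13444700 on chromosome 11, held 12 CG mCs and 1 CHH mC. Its level was 96.1% in Pokkali control (174 of 181 reads, interval 92.2 to 98.1) and 91.3% in Pokkali salinity (147 of 161 reads, 85.9 to 94.7). It was 19.1, 27.2 and 25.2% in IR64 control, desiccation and salinity, and 31.2 and 21.4% in N22 control and desiccation. The CHH cytosine, at 13444656, followed its CG neighbours, at 100% in Pokkali control and 92.3% in Pokkali salinity and at 14.3 to 26.9% in the other libraries. The CG and CHH cytosines of this bin were thus high in Pokkali and low elsewhere, and no CHG cytosine was compared there.

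Another higher bin on chromosome 11, at 24269801 to 24269900, held 6 CHG mCs and no other. It was at 92.3% in Pokkali control and 94.4% in Pokkali salinity, at 23.5, 30.1 and 32.1% in IR64 control, desiccation and salinity, and at 38.4 and 37.0% in N22 control and desiccation. The same pattern was thus seen with CHG methylation alone. The bin at 25728401 to 25728500 on chromosome 8, with 6 CG mCs, was at 96.8 and 93.1% in Pokkali control and salinity and at 29.4 to 33.3% in the other libraries. The bin at 29546001 to 29546100 on chromosome 3, with 3 CG mCs, was at 82.9 and 89.3% in Pokkali control and salinity and at 18.5 to 33.3% in the others.

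The remaining one, on chromosome 2 at 28309201 to 28309300, was uneven in depth. Its level was 90.2% in Pokkali control on 112 reads and 82.9% in Pokkali salinity on 181 reads, and 16.3 to 33.2% in the other libraries on 273 to 744 reads. Its 3 cytosines nearest the downstream end (28309281, 28309290 and 28309299) were at 70% or above in every library, on 6 to 20 reads each. The libraries with fewer reads thus had the higher levels at this bin, and the part of depth in the difference was not tested. Over all higher bins, the depth per mC in Pokkali relative to the other libraries had a median of 0.913, with a 5th percentile of 0.406, beside 1.12 at lower bins and 1.04 over all bins compared. The Wilson intervals of the levels in the 10 bins named for their gap were 5.64 to 21.01 points wide, on 55 to 744 reads, and cover counting error only, since neighbouring mCs are read on the same fragments.

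At the threshold, the lower bin at 4772501 to 4772600 on chromosome 1 had a gap of 20 points, with 51.8% in Pokkali control and 71.8% in N22 control as the nearest pair. Just outside it, the bin at 6206901 to 6207000 on chromosome 7 had a gap of 19.996 points, with 47.2% in Pokkali control and 67.2% in IR64 desiccation. Among higher bins, 22097601 to 22097700 on chromosome 4 was just inside, with 75.6% in Pokkali salinity and 55.6% in IR64 desiccation, and 3599101 to 3599200 on chromosome 2 was just outside, with 60.3% in Pokkali control and 40.3% in N22 control. Bins on the sides of this limit hardly differed, so the counts follow the limit.

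In most members the mCs compared were in CG context alone. The classes given here count only mCs listed in all 7 tables, which were 42101 of the 81369 cytosines listed in any table within the lower bins, so a CG-only bin may hold other mCs that some libraries did not list. Of the lower bins, 67.6% (interval 66.5 to 68.6) were CG-only in this sense, beside 24.5% of all bins compared. CHG mCs only were found in 8.10% of the lower bins (7.53 to 8.72) and in 2.98% of all bins. In contrast, bins with CG and CHG mCs were 19.0% of the lower and 45.8% of all bins, and bins with any CHH mC were 5.32% of the lower and 26.7% of all bins. Read the other way, 2.99% of all CG-only bins and 2.95% of all CHG-only bins were lower in Pokkali, beside 0.450% of bins with CG and CHG and 0.216% of bins with CHH mCs. Bins of a single symmetric context were thus lower in Pokkali several times more often than mixed bins.

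The higher bins leaned the same way but less far. CG-only bins were 51.3% of them (45.8 to 56.8), bins with CG and CHG 29.9%, bins with CHG only 4.14% and bins with CHH mCs 14.6%. Members also held fewer mCs, with a median of 4 compared mCs per bin beside 7 over all bins. The share of bins that were lower in Pokkali fell from 2.58% at 3 mCs to 0.123% at 15 or more. Among bins with exactly 4 mCs it was 3.07% for CG only, 2.61% for CHG only, 0.632% for CG and CHG and 0.290% with CHH mCs. The difference between context classes therefore remained when the number of mCs was held equal, while contexts were still pooled in mixed bins.

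**Figure D3:**
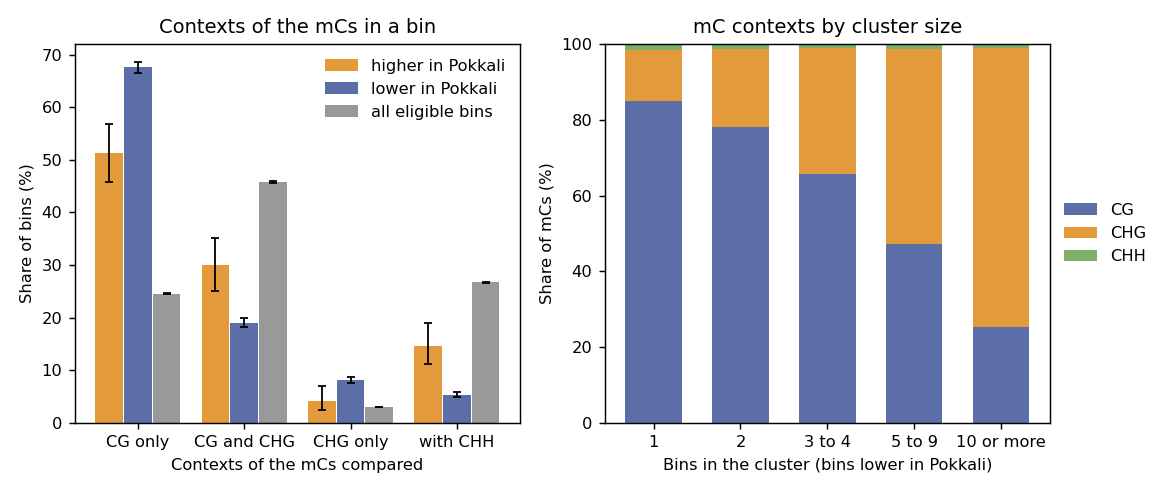
Left, share of bins (y axis, percent) by the contexts of their compared mCs for bins higher in Pokkali, bins lower in Pokkali and all bins compared, with 95% Wilson intervals. CG-only bins are 67.6% of the lower and 24.5% of all bins. Right, share of mCs in each context (y axis, percent) for lower bins, by the number of bins in their cluster. The CHG share goes from 13.6% in clusters of 1 bin to 73.6% in clusters of 10 or more.

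Cytosine by cytosine, all contexts lay in the direction of their bin. These cytosines also chose the bins, so high shares on that side follow largely from the rule. In lower bins the pooled CG level was 49.0 and 48.3% in Pokkali control and salinity and 87.6 to 90.0% in the other libraries. The pooled CHG level was 35.1 and 34.6% in Pokkali and 77.1 to 81.5% elsewhere. The pooled CHH level was 40.5 and 41.9% in Pokkali and 72.5 to 75.1% elsewhere. Of 31911 CG mCs in lower bins, 95.9% were lower on average in Pokkali, as were 99.2% of 9608 CHG mCs and 94.3% of 582 CHH mCs. In 6977 lower bins (87.0%) and 290 higher bins (92.4%), every compared mC lay on the side of the bin.

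Both strands took part, in bins chosen by the pooled reads of both. In lower bins the pooled level in Pokkali was 45.1% on the plus and 45.2% on the minus strand, beside 85.8 and 86.0% in the other libraries. Of 12604 CG sites compared on both strands within a lower bin, 93.0% were lower in Pokkali on both, and of 368 in higher bins 97.8% were higher on both. At lower bins the strands of such a CG site differed by a median of 6.72 points in Pokkali and 3.07 points in the others. At higher bins the order was reversed, with 4.51 points in Pokkali and 6.12 points in the others. The larger value was thus on the side at intermediate levels in each case. Counting error is larger at such levels, and Pokkali had fewer libraries than the other cultivars together. The part of counting error was not tested.

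Bins with at least 3 CG and at least 3 CHG mCs allowed both contexts to be followed in the same DNA. There were 364 such lower bins. In 151 (41.5%) both the CG and the CHG level were at least 20 points lower in Pokkali, in 204 (56.0%, interval 50.9 to 61.1) only the CHG level was, and in 9 only the CG level was. In 161 of them CHG was lower by 20 points or more while CG differed by less than 10 points in that direction. The median difference was -44.8 points for CHG and -13.6 points for CG. CHG methylation was thus often lower in Pokkali where CG methylation in the same bin was retained.

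Among the bins lower in N22 or IR64 the share was smaller. Only CHG was lower in 21 of 97 such N22 bins (21.6%, interval 14.6 to 30.8) and in 29 of 166 such IR64 bins (17.5%, 12.4 to 24.0), and both intervals were separate from that of Pokkali. Among the bins higher in N22 or IR64 only CHG was higher in 34.3% (35 bins, interval 25.8 to 43.9) and in 40% (6 of 15 bins, 19.8 to 64.3), respectively, and the latter interval overlapped that of the bins lower in Pokkali. CHG-only bins were 2.91% of the bins lower in N22 and 3.89% of those lower in IR64, but 9.19% (8.05 to 10.5) of those higher in N22 and 6.43% of those higher in IR64. A raised share of CHG-only bins was therefore also seen outside Pokkali. CG-only bins were 56.7% of the bins lower in N22 and 63.2% of those lower in IR64, above the 24.5% of all bins in each case. These intervals count bins as independent, although bins of 1 cluster are not. Among the 25 higher bins of Pokkali with both contexts, 20 were higher in both, with median differences of 36.6 points for CHG and 35.5 points for CG.

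Cytosines left out of the comparison because a library did not list them leaned in the same direction. The lower bins held a mean of 7.01 listed mCs in Pokkali control and 6.46 in Pokkali salinity, beside 8.29 to 8.54 in the other libraries. Over all bins compared the means were 13.6 in Pokkali control, 12.6 in Pokkali salinity and 12.8 to 13.4 in the others. In 2360 of these bins (29.4%) at least 1 cytosine, 5664 in all, was listed in all 5 other libraries and in neither Pokkali library, whereas 404 cytosines showed the reverse. At higher bins Pokkali listed a mean of 13.5 and 12.7 mCs and the others 9.86 to 10.9, with 399 cytosines listed in Pokkali only and 120 in the others only. Cytosines listed on 1 side were counted in the members only, so no share over all bins stands beside these counts. Listing depends on the methylation level, which also chose the members, so it is not separate evidence. A cytosine is not listed when it was not called methylated, for instance because its level was low or its reads were few. The reasons cannot be told apart in the tables.

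Most clusters were single bins, and a minority of the lower bins lay in longer runs. Chaining members whose starts were at most 500 bp apart gave 5935 clusters of lower bins and 273 clusters of higher bins. Of the lower clusters 4759 were single bins, 405 held 3 or more bins, 106 held 5 or more and 12 held 10 or more, and the largest held 26. Clusters of 2 or more contained 40.7% of the lower and 21.7% of the higher bins, and the largest higher cluster held 6. Where the adjacent bin could be compared, it was a member of the same direction in 34.8% of cases for lower bins (2338 of 6720) and in 18.7% for higher bins (50 of 267). A member of the opposite direction was adjacent in 1 case.

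The share of mCs in CHG context rose with the size class of the clusters of lower bins. CHG mCs were 13.6% of the compared mCs in lower bins that stood alone, 20.6% in clusters of 2, 33.1% in clusters of 3 to 4, 51.3% in clusters of 5 to 9 and 73.6% in the 12 clusters of 10 or more. The median difference between Pokkali and the others stayed between -37.2 and -42.1 points over these classes. Over all bins compared 31.8% of mCs were in CHG context. Bins of CHG only were in a cluster of 2 or more in 66.3% of cases and bins of CG only in 31.6%. Isolated lower bins therefore held mostly CG mCs, and the 12 clusters of 10 or more together held mostly CHG mCs. Clusters of 5 to 9 were mixed as a class, with 47.3% of their mCs in CG context. A cluster of 9 bins on chromosome 12 held 52 CG mCs and 0 CHG mCs. Another of 9 bins on chromosome 9 held 59 CHG mCs and 0 CG mCs.

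The largest cluster spanned 4400 bp on chromosome 4, from 12145701 to 12150100, with 26 lower bins among 33 compared. Its 148 CHG mCs were at 41.3% in Pokkali control and 33.2% in Pokkali salinity, beside 86.5, 86.2 and 86.5% in IR64 control, desiccation and salinity and 89.7 and 89.4% in N22 control and desiccation. Its 34 CG mCs were at 88.4 and 87.7% in Pokkali control and salinity, beside 91.7 to 94.7% in the other libraries. In this run Pokkali had low CHG methylation while CG methylation was nearly as high as in the other cultivars.

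**Figure D4:**
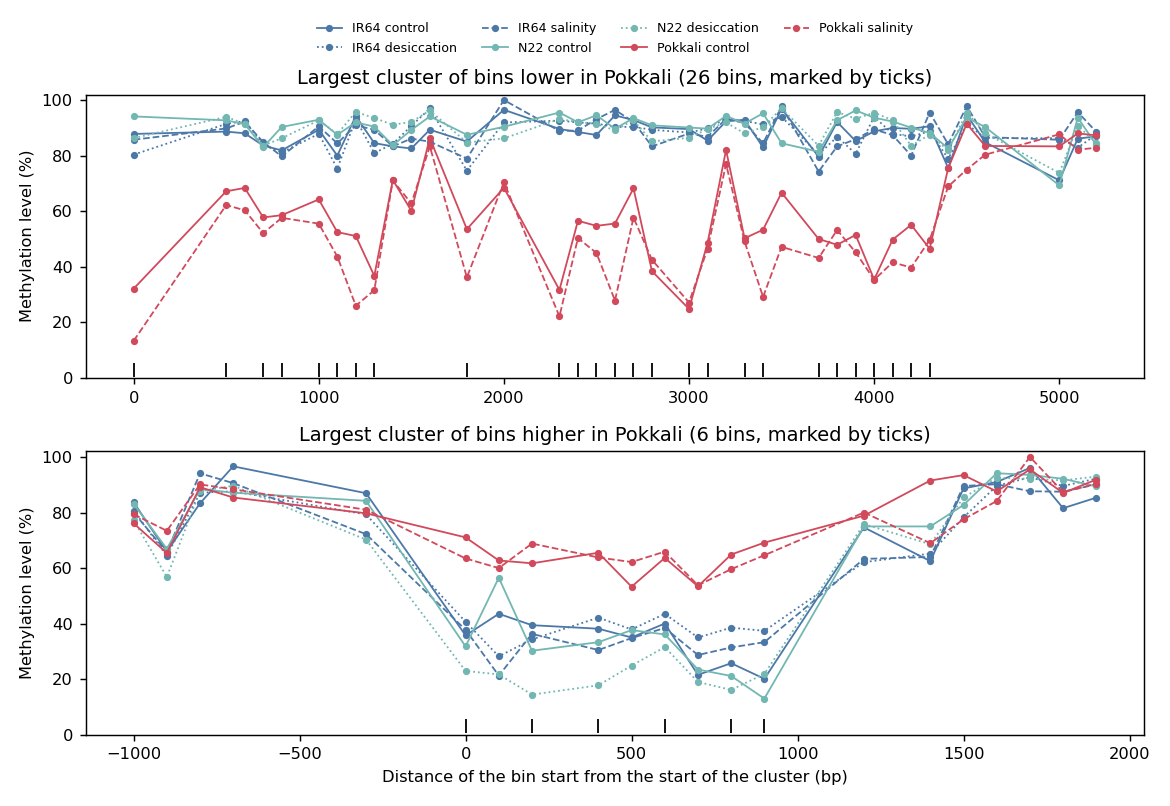
Methylation level (y axis, percent) of every compared bin in and 1000 bp around the largest cluster of lower bins (top, 26 bins) and of higher bins (bottom, 6 bins), by distance from the start of the cluster in bp. Lines are libraries and ticks mark members. Over the lower cluster the 2 Pokkali libraries average 50.2 and 43.1% and the others 87.4 to 90.7%, and over the higher cluster Pokkali is at 65.4 and 64.4% and the others at 20.97 to 39.02%.

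Another cluster on chromosome 4, from 14799101 to 14801800, held 19 lower bins and showed the same split. Its 88 CHG mCs were at 35.7 and 28.8% in Pokkali control and salinity and at 85.1 to 88.3% in the other libraries. Its 28 CG mCs were at 87.4 and 85.8% in Pokkali and at 90.7 to 94.5% elsewhere. The CHG levels of Pokkali were again low and the CG levels high.

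The cluster at 5441701 to 5444700 on chromosome 11 held 20 lower bins. Its 77 CHG mCs were at 23.6 and 32.4% in Pokkali control and salinity and at 77.2 to 81.7% elsewhere, and its 53 CG mCs were at 73.0 and 76.7% in Pokkali and at 87.8 to 89.9% elsewhere. CG methylation was lower here too, but by less than CHG methylation. Reads over these mCs numbered 6858 and 6181 in Pokkali control and salinity and 11035 to 14339 in the other libraries, so depth differed along with the level, and its part was not tested.

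Among higher bins the CHG share was 16.6% in the 246 single bins and 25.7% in the 19 clusters of 2. It was 32% in the 7 clusters of 3 to 4 and 27.7% in the only larger one, beside 31.8% over all bins compared. On chromosome 1, 6 higher bins lay between 22265501 and 22266500, with 33 CG mCs at 68.2 and 67.8% in Pokkali control and salinity, at 34.4, 40.4 and 36.5% in IR64 control, desiccation and salinity, and at 26.6 and 22.5% in N22 control and desiccation. Their 13 CHG mCs followed, at 61.4 and 58.3% in Pokkali and 17.7 to 36.3% in the others. CG and CHG methylation were thus high together in Pokkali.

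On chromosome 7, 4 higher bins lay between 17325101 and 17325600, with 27 CG mCs at 91.5 and 91.6% in Pokkali control and salinity and at 21.02 to 37.9% in the others. Reads there numbered 563 and 730 in Pokkali and 855 to 2373 in the other libraries. On chromosome 11, 4 higher bins lay between 13444401 and 13444900, with 29 CG mCs at 93.2 and 90.4% in Pokkali and at 26.8 to 41.6% in the others.

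The difference faded with distance. Compared bins that were not members but lay 100 bp from a lower bin had a median difference, Pokkali mean minus the mean of the other 5, of -10.2 points (4209 bins). The median was -5.88 points at 200 bp, -2.79 at 500 bp, -1.31 at 1000 bp and -0.674 at 2000 bp. Bins more than 2000 bp from any member had a median difference of 0.129 points. Beside higher bins the median was 7.30 points at 100 bp, 1.61 at 500 bp and -0.0410 at 2000 bp. Neighbours of members thus leaned the same way without passing the limit.

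**Figure D5:**
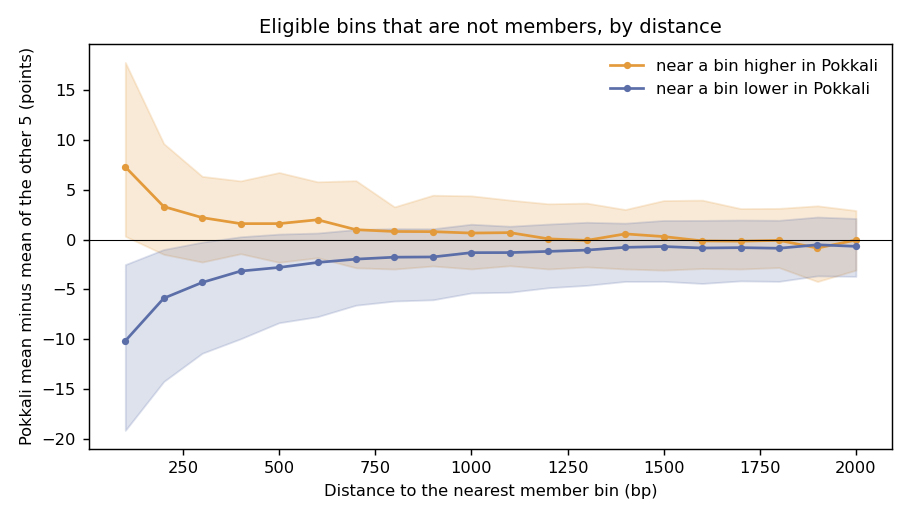
Difference between the mean level of the 2 Pokkali libraries and the mean of the other 5 (y axis, percentage points) for compared bins that are not members, by distance in bp to the nearest higher or lower bin (x axis). Points are medians and bands span the 25th to the 75th percentile. The median is -10.2 points at 100 bp from a lower bin and -0.674 at 2000 bp.

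Lower bins were spread over the whole genome. They made up 0.936% of the compared bins of chromosome 7 (interval 0.862 to 1.02) and 1.35% of those of chromosome 12 (1.25 to 1.46), the lowest and highest of the 12 chromosomes. Each of 375 windows of 1 Mb with at least 500 compared bins held a lower bin. The median window had 1.07%, with a 5th to 95th percentile of 0.408 to 2.39%. The densest was 23000001 to 24000000 on chromosome 11, with 48 lower bins of 1067 (4.50%, 3.41 to 5.91). Next came 5000001 to 6000000 on the same chromosome, with 55 of 1506 (3.65%, 2.82 to 4.72). Of these 55, 20 lay in the cluster at 5441701 to 5444700, and clusters of 7 and 8 lower bins followed close behind. The density of that window thus rested largely on 1 stretch. Wilson intervals of chromosomes and windows count bins as independent, although bins of 1 cluster are not. The sparsest was 2000001 to 3000000 on chromosome 4, with 1 of 1311 (0.0763%, 0.0135 to 0.431). Local density thus varied widely while none of these windows was free of lower bins.

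Comparisons within a cultivar were not used by the rule, other than that both Pokkali libraries had to lie on the same side. Fisher's exact test was applied to the methylated and unmethylated reads of each bin, adjusted over all 739911 bins (Benjamini-Hochberg), and a bin was called at a difference of 20 points and an adjusted p of 0.01. With 1 library per condition, a call says that the libraries differ, not that the treatment has an effect. Between Pokkali salinity and control, 1211 bins (0.164%) were called, and among the members these were 30 of the 8020 lower bins (0.374%) and 0 of the 314 higher bins, of which 17 had an unadjusted p under 0.05 in Fisher's exact test. Of the 30, 17 were higher and 13 lower under salinity, beside 943 higher and 268 lower among the 1211 called bins. CG mCs only were held by 20 of the 30, beside 67.6% of all lower bins. Fisher's exact test gave an unadjusted p under 0.05 at 893 of the 8020 lower bins. Unadjusted p-values were counted in the members only, so no share over all bins stands beside these counts. The Pokkali libraries were within 10 points of each other in 77.9% of lower and 92.0% of higher bins, beside 89.1% of all bins compared. By this measure the lower bins varied more between the Pokkali libraries than the background. Their median level in Pokkali control was 46.1% on a median of 111 reads, beside 83.7% on 126 reads over all bins compared. Counting error is larger at intermediate levels and fewer reads, and its part was not tested. The median difference between the Pokkali libraries (salinity minus control) was -0.390 points over the lower and 0.171 points over the higher bins.

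Among the members, the largest change between the Pokkali libraries was at a lower bin with 6 CG mCs on chromosome 11, at 9012501 to 9012600. Its level was 63.2% on 190 reads in Pokkali control and 25% on 140 reads in Pokkali salinity, a difference of -38.2 points (Fisher's exact test, adjusted p 3.46e-08). IR64 was at 99.4, 97.2 and 95.7% in control, desiccation and salinity, and N22 at 98.6 and 97.9% in control and desiccation. In the opposite direction, the bin at 6192701 to 6192800 on chromosome 2 with 4 CG mCs was at 19.0% in Pokkali control and 56.6% in Pokkali salinity (adjusted p 0.00124 by Fisher's exact test). The other 5 libraries were at 91.8 to 98.6% there. Pokkali was thus below the other cultivars in both its libraries, by an amount that differed between them.

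Between IR64 salinity and control, 326 bins (0.0441%) were called. Fisher's exact test called 0 of the 8020 lower bins, of which 434 had an unadjusted p under 0.05, and 2 of the 314 higher bins. Here too, unadjusted p-values were counted in the members only, without a share over all bins. The rule holds all 3 IR64 libraries above Pokkali at lower bins, where the levels were close to the upper end of the scale. The 2 called bins were on chromosome 7 at 9689401 to 9689500, with 26.7% in IR64 control and 50% in IR64 salinity, and on chromosome 10 at 2124801 to 2124900, with 34.5 and 12.8%. They moved in opposite directions.

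Between N22 control and IR64 control, 20143 bins (2.72%) were called, 16276 of them higher and 3867 lower in N22. The rule used both of these levels, since each had to lie 20 points beyond both Pokkali libraries, so the counts among members are a description. Among the lower bins 229 (2.86%) were called, 187 of them higher and 42 lower in N22, and among the higher bins 24 (7.64%) were called, 16 higher and 8 lower in N22. The share at lower bins was near the background. The median difference between N22 and IR64 control was 1.83 points at lower bins and 1.78 points over all bins compared. N22 and IR64 were near the upper end of the scale at lower bins and at intermediate levels at higher bins.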

How the data were processed

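Genomic DNA was bisulphite converted and sequenced by the authors, and uniquely mapped reads were kept after alignment by Bismark (rice genome of MSU, release 7). The deposited tables give, per the file headers, the read depth as a count and the methylation level in percent of each cytosine called methylated, which the study did by a binomial test at a p of 0.001 and a minimum depth of 5. Cytosines not called are not listed. Methylated reads were computed as depth times level. The 956 cytosines with different context labels took that of IR64 control. Bins, clusters, Wilson intervals and Fisher's exact tests with Benjamini-Hochberg adjustment were computed in Python 3.11.15 with NumPy 2.4.6 and SciPy 1.17.1. The code of the rule and the test was run on simulated data. These had larger changes than most members and every cytosine listed, so they checked the code only. Named bins were the 5 of largest gap per direction with 50 or more reads in each library, 1 per cluster, the largest clusters, the densest and sparsest windows, and bins at the limit. The called bins described, and the clusters of 9 bins given for their contexts, were chosen after their values were seen. The members and lists were chosen with earlier results of these data known. Lists of genes were not used, since no annotation of this build was used here.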

Additional observations from a re-analysis of the deposited data

Results flagged for a closer look

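The difference between salinity and control had opposite signs in Pokkali and IR64 for 3 pooled levels of the members, and none of these differences between cultivars was tested, since each rests on 1 library per condition. In higher bins the pooled CHG level changed by 1.68 points in Pokkali and by -4.72 points in IR64. In lower bins the pooled CG level changed by -0.700 points in Pokkali and by 0.454 points in IR64. For the CHG level of lower bins the changes were -0.505 points in Pokkali and 0.0525 points in IR64. Over all bins compared, the CG level changed by -0.684 points in Pokkali and by 0.304 points in IR64, so the CG values of the lower bins were near those of the background.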

How the results depend on the processing

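Lower bins outnumbered higher bins under all 20 alternatives, with a share of 62.6% (CHH cytosines only) to 97.8%. How far the upper end of the scale limited the higher bins was not tested in any of them. Over all bins compared, the pooled CHH level was 39.9 to 43.6% in the 7 libraries. All counts rest on single libraries. The lower and higher counts were 18889 and 1630 at a gap of 10 points, 3842 and 87 at 30 points, and 3408 and 126 with 5 cytosines. With CHG cytosines only they were 2810 and 154, and with CHH cytosines only 57 and 34. With the 3 control libraries they were 21351 and 2068, and with the 4 stressed libraries 15219 and 2020. With 50 reads 179 bins were higher, and with 10 reads at each cytosine 5314 were lower. Leaving out 1 library gave 8509 to 14684 lower and 395 to 762 higher bins. The highest counts came without a Pokkali library, with 12942 lower and 762 higher bins without Pokkali control and 14684 and 641 without Pokkali salinity, and 550 bins were higher without N22 control. Clusters numbered 6689 when chained at 200 bp and 5889 at 1000 bp, beside 6208. Members called between the Pokkali libraries, 30 in the main setting, numbered 12 at a call limit of 30 points, 16 with 10 reads at each cytosine, 18 with CG only, 3 with CHG only and 1 with CHH only. Between the IR64 libraries, beside 2, the counts were 5 at 10 points, 0 at 30 points, 1 with the mean of site levels, CHG only or without extreme depth, and 0 with CHH only. Between N22 and IR64 control, beside 253, they were 389 at 10 points, 87 at 30 points, 121 with 5 cytosines, 100 with CHG only and 1 with CHH only. No paired analysis was possible because each group has a single library, so that the groups compared share fewer than 2 replicate numbers.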

Other observations

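ChrUn and ChrSy, which the rule left out, held 1390 and 1145 bins that met the limits on mCs and reads. ChrUn had 0 bins past the limit of 20 points, and ChrSy had 2 bins that were lower in Pokkali.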
